A study of Mus musculus with 6 samples.

Results

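The genes described here are the small nucleolar RNA (snoRNA) genes of the mouse, chosen as every transcript of the deposited table whose gene symbol begins with Snora or Snord. They number 102 of 32547 transcripts. By symbol, 35 are H/ACA box snoRNAs (Snora) and 67 are C/D box snoRNAs (Snord). The RefSeq entries behind Snora36b and Snord33 are the microRNAs Mir664 and Mir5121.

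Small nucleolar RNAs are short noncoding RNAs of the nucleolus, where they pair with ribosomal RNA precursors. C/D box snoRNAs carry the enzyme fibrillarin and guide methylation of the ribose, H/ACA box snoRNAs carry dyskerin and guide the conversion of uridine to pseudouridine, and a few members of either class take part in cleaving the ribosomal RNA precursor instead. In mammals most lie within introns of host genes, many of which encode ribosomal proteins, and are trimmed out of the spliced intron, so that a snoRNA and its host RNA come from the same primary transcript.

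The libraries came from CD4 T cells of C57BL/6 mice, flow sorted from lymph nodes and spleens. Naive cells were CD4+ CD62L+ CD25-. Natural regulatory T cells (nTregs) were CD4+ with high CD25 and either CD62L state, and were taken fresh or after culture with plate-coated anti-CD3 (2 µg/ml), soluble anti-CD28 (2 µg/ml) and IL-2 (100 U/ml). The stimulation lasted 24 h by the treatment text and 48 h by the extraction text of the labels. Each of the 3 populations was sequenced once from wild type (WT) mice and once from YAP cKO mice, which carry YAP flox/flox alleles and CD4-Cre, giving 6 libraries with 1 per group. CD4-Cre acts in T cells as a whole, and the number of mice behind a library is not stated.

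The sorted identities were visible in the marker genes. Foxp3, the regulatory T cell transcription factor, was at 2.98 and 3.30 FPKM in the naive and 45.9 to 57.8 FPKM in the nTreg libraries, where FPKM is the number of fragments per kilobase of transcript, scaled to the library total. B cell markers summed to 0.809 to 1.35 FPKM, myeloid markers to 0.591 to 4.69, NK cell markers to 0.302 to 2.00, CD8 T cell markers to 3.59 to 8.90 and erythroid markers to 0.0734 to 0.965 FPKM over the 6 libraries. Directions between genotypes rest on the column names, because Yap1 was listed at 0 in each unstimulated library and at 0.169 (WT) and 0.235 FPKM (cKO) after stimulation.

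The sequences of the members on which the results turn are shown first, because box elements define both classes and annotated length separated members with a value from those without. They are from GENCODE M21 on mouse build GRCm38 (mm10), written as DNA from 5′ to 3′. Capitals in the C/D members mark a C box, TGATGA, within the first 20 bases and a D box, CTGA, within the last 15 bases. Capitals in the H/ACA members mark the ACA that stands 3 bases before the 3′ end. Snord22 (chr19:8725866-8725991, plus strand) lies in Snhg1 and had the highest FPKM of all members; no TGATGA was found in its first 20 bases. Snord15b (chr7:99479563-99479707, minus strand) and Snord15a (chr7:99482785-99482932, minus strand) are a pair within Rps3. Snord17 (chr2:144265979-144266216, minus strand) lies in an intron of Snx5 and is the longest C/D member. Snora26 (chr5:74093530-74093650, plus strand) and Snora7a (chr6:115807975-115808114, minus strand; host Rpl32) are among the 5 H/ACA members with the highest mean FPKM. Snora64 (chr17:24720772-24720905, plus strand; host Rps2) had one of the largest differences after stimulation, and Snora41 (chr1:63179004-63179135, plus strand; host Eef1b2) was the only member called between genotypes. Snora20 (chr17:12922790-12922917, plus strand; host Tcp1) and Snord47 (chr1:161038082-161038158, plus strand; host Gas5) stand for members listed at 0 in every library.
Snord22: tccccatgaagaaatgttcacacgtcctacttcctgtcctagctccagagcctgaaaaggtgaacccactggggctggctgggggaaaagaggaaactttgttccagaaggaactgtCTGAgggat
Snord15b: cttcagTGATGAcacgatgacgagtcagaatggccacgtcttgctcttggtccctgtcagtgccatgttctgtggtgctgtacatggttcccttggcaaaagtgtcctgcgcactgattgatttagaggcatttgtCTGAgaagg
Snord15a: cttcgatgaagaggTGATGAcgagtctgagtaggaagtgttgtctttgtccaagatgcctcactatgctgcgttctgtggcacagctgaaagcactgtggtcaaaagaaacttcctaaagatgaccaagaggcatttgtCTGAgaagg
Snord17: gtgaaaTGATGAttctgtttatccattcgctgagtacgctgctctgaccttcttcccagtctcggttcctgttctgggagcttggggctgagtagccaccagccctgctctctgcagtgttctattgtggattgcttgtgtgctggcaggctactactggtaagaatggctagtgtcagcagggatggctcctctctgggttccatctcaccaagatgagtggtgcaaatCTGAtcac
Snora26: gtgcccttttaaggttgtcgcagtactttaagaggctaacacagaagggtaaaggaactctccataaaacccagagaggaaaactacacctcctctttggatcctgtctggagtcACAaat
Snora7a: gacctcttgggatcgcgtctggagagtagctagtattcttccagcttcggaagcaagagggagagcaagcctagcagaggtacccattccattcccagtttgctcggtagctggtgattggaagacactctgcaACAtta
Snora64: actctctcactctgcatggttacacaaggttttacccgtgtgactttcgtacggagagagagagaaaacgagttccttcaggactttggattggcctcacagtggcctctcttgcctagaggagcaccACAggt
Snora41: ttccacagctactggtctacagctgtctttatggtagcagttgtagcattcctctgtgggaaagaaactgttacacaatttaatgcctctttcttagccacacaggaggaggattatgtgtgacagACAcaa
Snora20: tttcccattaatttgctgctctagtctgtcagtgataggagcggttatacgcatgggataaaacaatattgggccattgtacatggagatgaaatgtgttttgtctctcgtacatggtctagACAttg
Snord47: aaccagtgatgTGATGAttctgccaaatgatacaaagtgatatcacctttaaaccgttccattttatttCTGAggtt

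A D box was found in 60 of 67 C/D members and 2 of 35 H/ACA members, against 7.11% of the 141693 GENCODE transcripts searched in the same windows on the transcript strand. The C box letters were found in 41 of 67 C/D and 0 of 35 H/ACA members, against 0.699% of all transcripts. The terminal ACA was found in 29 of 35 H/ACA and 0 of 67 C/D members, against 2.45% of all transcripts. The absence of a match says only that these exact letters were not in the window searched. By position, 50 members lay in an intron of every transcript of their host, 48 overlapped an exon of at least 1 host transcript, and 4 had no annotated host on the same strand. The host was a ribosomal protein gene for 31 members.

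Whether a snoRNA had a value went with its annotated length. All 67 members under 100 nt in the RefSeq annotation were listed at 0 in all 6 libraries, and so were the other 905 features of the table below that length. Of the 35 members of 100 nt or more, 33 were above 0 in at least 1 library and 17 in all 6. The C/D class is shorter, with a median of 68 nt against 119 nt for H/ACA. Thus 62 of 67 C/D members, but only 5 of 35 H/ACA members, fell under 100 nt. The C/D class was therefore read through 4 genes, Snord22, Snord15b, Snord17 and Snord15a, and the H/ACA class through 29.

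The 5 unread H/ACA members, Snora19, Snora20, Snora36b, Snora61 and Snora68, are under 100 nt only in RefSeq. For Snora36b that entry, of 69 nt, is the microRNA Mir664, and for the C/D member Snord33 it is the microRNA Mir5121, of 74 nt. Snora20, printed above, is 61 nt long in RefSeq and 128 nt long in GENCODE, and in all 11 of the 67 unread members are 100 nt or longer in GENCODE. A value of 0 for these genes does not show that the RNA was missing from the cells. The same holds for Snord47 of the Gas5 group, for Snord33, Snord34 and Snord35a of Rpl13a, for the U14 snoRNAs Snord14a and Snord14d and for the brain-type imprinted Snord116, all listed at 0. Above 100 nt, Snord118 (U8, which acts in processing of the large subunit RNA) and Snora35, an H/ACA snoRNA within the serotonin receptor gene Htr2c, were also listed at 0 in every library.

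**Figure D1:**
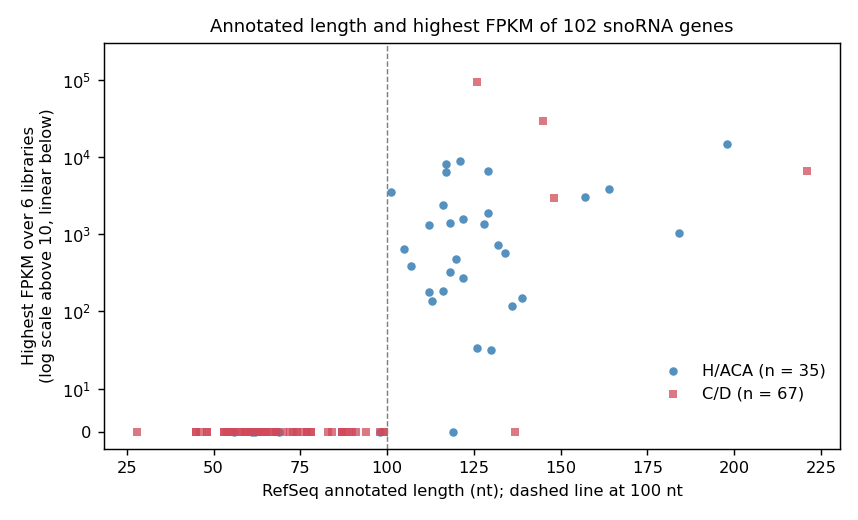
Annotated RefSeq length in nucleotides (x axis) against the highest FPKM over the 6 libraries (y axis, logarithmic above 10 and linear below) for 102 snoRNA genes, with H/ACA as blue circles and C/D as red squares. All 67 members to the left of the dashed line at 100 nt sit at 0, while 33 of the 35 to its right are above 0.

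FPKM of such short features cannot be read as a level. The low values of a given length were read as whole multiples of a step, the worth of 1 fragment. Of 115 values under 8.5 fragments, 96.5% were whole within 6%, but the steps were fitted to these same values. Near the upper end of that range the 6% window takes in almost any value, so this share does not check the estimates. Through these steps the FPKM of 32 members were turned into estimated fragments. A fragment on a feature of 120 nt was worth 53.2 FPKM in the WT naive library, and one on a feature of 200 nt was worth 2.69 FPKM. Of the 32 members, 19 had at least 10 fragments in each unstimulated library (15 H/ACA and 4 C/D), and these are called the deeper members below. Another 13 never exceeded 10 fragments and 7 never exceeded 2. Of the 33 members above 0, 14 had a near copy elsewhere in the genome's transcripts (at least 90% identity over at least 90% of the length), so their fragments could be shared with it.

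Snord22, which lies in Snhg1 and is counted among the snoRNAs needed for processing of the small subunit RNA, held the most FPKM. Naive cells had 92337 (WT) and 78736 FPKM (cKO), fresh nTregs had 70129 and 61943 FPKM, and stimulated nTregs had 17274 and 23484 FPKM. Behind these values stood about 2830, 2780, 1930, 1670, 412 and 664 fragments in the same order. Both stimulated libraries lay below all 4 unstimulated ones. It made up 35.7% to 49.1% of the snoRNA FPKM but 9.73% to 17.3% of the snoRNA fragments.

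Snora74a, an H/ACA snoRNA of the U19 type, gave the most fragments. In the order naive, fresh and stimulated with WT first, it was at 14502, 13875, 14297, 14460, 6022 and 5785 FPKM from about 5200, 5800, 5310, 5190, 1850 and 2190 fragments. Here the 4 unstimulated libraries were nearly level and both stimulated libraries lay below them. Snora74a held 31.9% to 44.5% of snoRNA fragments against 7.71% to 12.4% of snoRNA FPKM. Together with Snord17, Snord22 and Snord15b it accounted for 85.3% to 89.0% of the fragments assigned to snoRNA genes in a library, so the sum over all members is largely the sum over those 4.

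The paired Rps3 members differed in level while standing in one gene. Snord15b was at 29073, 27303, 25869, 23792, 14540 and 9189 FPKM, in the order naive, fresh and stimulated with WT first. Snord15a was at 2643, 2958, 2826, 2746, 1270 and 969 FPKM in that order. At 145 and 148 nt their lengths are close, and Snord15b had about 764 to 2730 fragments a library against 92 to 334 for Snord15a. Both were lowest in the stimulated cKO library.

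Snord17, within Snx5, was at 6596, 6274, 4331, 4129, 1032 and 1364 FPKM from about 3400, 3770, 2380, 2190, 464 and 762 fragments. The order of populations was naive above fresh nTreg above stimulated nTreg in both genotypes, with no overlap. Among the other H/ACA members, Snora26 was at 6453, 6456, 8888, 8574, 1381 and 1728 FPKM, and Snora7a, which lies in Rpl32, at 6620, 6504, 4994, 4512, 3133 and 1983. Snora26 was highest in fresh nTregs and Snora7a in naive cells.

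By share of the FPKM sum, snoRNA genes held 19.4% (WT) and 18.0% (cKO) of the naive libraries, 19.3% and 17.3% of the fresh nTreg libraries and 9.06% and 8.47% of the stimulated nTreg libraries. The H/ACA share was 5.93%, 5.99%, 6.95%, 6.32%, 2.68% and 2.59% in the same order. The C/D share was 13.5%, 12.0%, 12.3%, 11.0%, 6.39% and 5.88%. In each class both stimulated libraries lay below all 4 unstimulated ones. An exact two-sided permutation test over the 6 libraries gave p = 0.0667 for all snoRNA and for each class, the smallest value that its 15 splits allow, and 0.1 after adjustment over 6 measures, so the design cannot reach 0.05 here.

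The balance of the classes depended on the unit. The ratio of C/D to H/ACA FPKM was 2.27, 2.00, 1.77, 1.74, 2.39 and 2.27 in the same library order, where the ranges of stimulated and unstimulated libraries overlapped (exact permutation p = 0.2). In estimated fragments the ratio was 1.23, 1.19, 0.956, 0.887, 0.881 and 0.866, with both stimulated libraries below the 4 others (exact permutation p = 0.133). Against a library size read from the worth of 1 fragment on 1 kb, snoRNA fragments were 0.224%, 0.205%, 0.15%, 0.149%, 0.0601% and 0.0540%. The order naive, fresh, stimulated held in both genotypes. That size carries the Cuffnorm scaling and is not a count of the library's fragments.

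**Figure D2:**
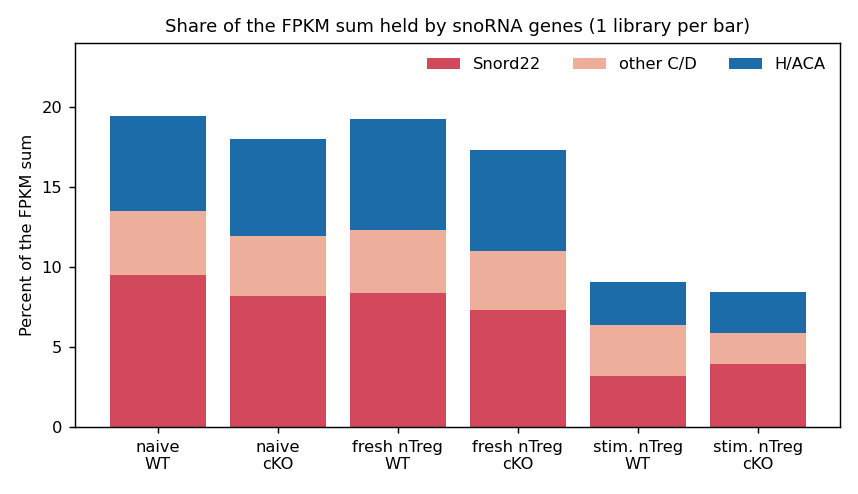
Percent of each library's FPKM sum held by Snord22 (red), by the other C/D genes (pink) and by H/ACA genes (blue), with 1 bar for each library. The 4 unstimulated bars stand between 17.3% and 19.4% and the 2 stimulated bars at 9.06% and 8.47%.

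The first comparison asked how snoRNA genes differed between stimulated and fresh nTregs. Of 30 members tested, 23 fell and 0 rose, and all 30 had values below 0. The background was high, as 49.7% of the 11234 genes tested passed, with 27.2% of all genes tested lower and 22.4% higher. The median log2 difference, on the scale of log2(FPKM + 1), was -2.51 for snoRNA genes against -0.05 for all genes tested. H/ACA genes had a median of -2.83 (26 genes, 19 of which fell) and C/D genes one of -1.52 (4 genes, all of which fell). The larger H/ACA value rests in part on members listed at 0 after stimulation. For fragments scaled by library depth, empty libraries were set to a floor of 3 fragments. On that scale the 26 H/ACA genes had medians of -0.92 in WT (17 lower) and -1.44 in cKO (20 lower). The C/D genes stood at -1.44 and -1.47. A member with no fragment after stimulation and at most 3 in fresh nTregs was given a difference of 0, which raises the H/ACA medians. The 15 deeper H/ACA members had medians of -2.51 in WT and -1.94 in cKO, lower than the C/D genes. Tests were limma with population and genotype as terms, adjusted by the Benjamini-Hochberg method at 0.05, and their p-values measure the spread between these libraries, not between mice.

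All 4 C/D members fell. Snord17 had a log2 difference of -1.83 ± 0.17 (SE; limma adjusted p = 0.000568), and Snord22 one of -1.71 ± 0.36 (adjusted p = 0.0101). The Rps3 pair changed less, with Snord15a at -1.33 ± 0.16 (adjusted p = 0.00135) and Snord15b at -1.10 ± 0.27 (adjusted p = 0.0169). Within the pair of nTreg libraries of each genotype, Snord22 differed by -2.02 in WT and -1.40 in cKO, while Snord15b differed by -0.83 and -1.37. The gap between both genes was wider in WT than in cKO, a difference with 1 library on each side that was not tested.

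Among the abundant H/ACA members, Snora74a fell by 1.28 on the log2 scale (SE 0.19, limma adjusted p = 0.00268), and Snora7a by 0.93 (SE 0.19, adjusted p = 0.00985). Snora26 changed by -2.50 ± 0.16 (adjusted p = 0.000205). Snora44, which lies in Snhg12, changed by -2.48 ± 0.27 (adjusted p = 0.000972). It was at 6369 and 3895 FPKM in fresh and 759 and 1043 FPKM in stimulated nTregs, so that both stimulated libraries were lower.

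Snora64, printed above and lying in Rps2, was at 8083 (WT) and 7210 FPKM (cKO) in fresh nTregs from 99 and 87 fragments. After stimulation it was at 190 FPKM from 2 fragments in WT and 1123 FPKM from 14 fragments in cKO. The limma difference was -4.04 ± 0.61 (adjusted p = 0.00304), and the 2 fragments of the WT library leave its size uncertain. Snora78, in Snhg9, was at 1832 and 2180 FPKM in fresh and 88.1 and 242 FPKM in stimulated nTregs, a change of -3.76 ± 0.35 (adjusted p = 0.000601). Snora15, in the chaperonin gene Cct6a, had 15 and 19 fragments in fresh nTregs and 0 and 2 after stimulation. Against a floor of 3 fragments for the empty library, Snora15 was at least 3.88-fold lower in stimulated WT nTregs, and Snora34, with 19 and 0 fragments, at least 4.91-fold lower.

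Of the 19 deeper members, 18 fell. The exception was Snora34 (limma adjusted p = 0.0521). The set was defined by fragments in unstimulated libraries, so a member high only after stimulation could not enter it. Its counts are thus no separate support for a fall. In scaled fragments with the floor, all 19 were lower in WT and all 19 in cKO, with medians of -2.05 and -1.61. The difference was smaller over all 30 tested members on that scale, with medians of -1.03 in WT and -1.45 in cKO, where 12 members in WT and 6 in cKO had no fragment after stimulation and show only a bound. The fitted values of Snora33 (-9.34), Snora75 (-7.04), Snora3 (-5.47) and Snora69 (-4.80) also passed, but rest on at most 8 fragments a library and are no measure of the fold.

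**Figure D3:**
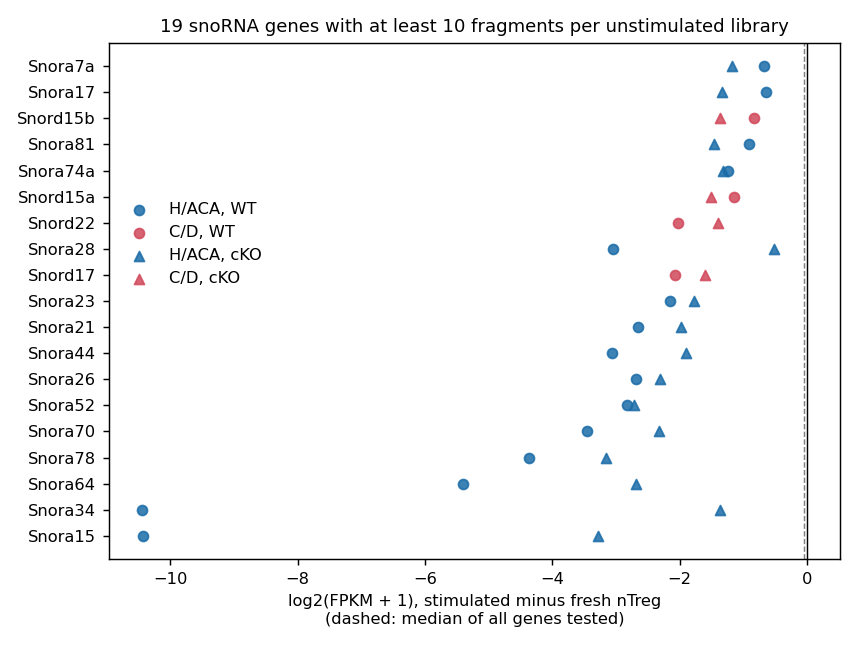
Stimulated minus fresh nTreg difference on the log2(FPKM + 1) scale (x axis) for the 19 members with at least 10 fragments in each unstimulated library, with circles for WT, triangles for cKO, blue for H/ACA and red for C/D. All points lie left of 0, and the points of Snora15 and Snora34 near -10 are WT values against a library listed at 0.

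The snoRNA-protein genes moved the other way in the same comparison. Of 33 measured genes from a list of 35 proteins that build, move or process these particles, 20 rose and 4 fell. Of all genes tested, 22.4% rose and 27.2% fell. All 4 core proteins of the C/D particle rose: the methyltransferase fibrillarin (Fbl, 0.44 on the log2 scale), Nop56 (0.57), Nop58 (0.63) and the RNA-binding Nhp2l1 (0.26). All 4 core proteins of the H/ACA particle rose as well: the pseudouridine synthase Dkc1 (0.87), Nhp2 (1.02), Nop10 (0.35) and Gar1 (0.96). Naf1, the assembly factor that precedes Gar1 on the H/ACA particle, rose by 1.24. The 4 that fell were Pih1d1, Tcof1, Coil and Imp3. The 8 core proteins had positive values under both rescalings of the libraries and in each fit that left out 1 library, but not all kept their calls. Without the fresh cKO library 2 of 4 C/D and 3 of 4 H/ACA core genes passed, and 13 genes of the whole list rose and 0 fell. With equal FPKM sums per library 30 rose and 0 fell. That scaling moved the median of all genes from -0.05 to 0.47 and that of the 33 genes from 0.41 to 0.98. The share of all genes called under it is not given here, so the larger count is no separate result.

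The host genes of snoRNAs differed less. For 26 tested members the host RNA was also measured, from 24 hosts, and the median host difference was -0.000634 against -2.51 for their snoRNAs. Of the 24 hosts, 3 rose and 5 fell, where 22.4% of all genes tested rose and 27.2% fell. Each of the 26 snoRNAs had a lower fitted value than its host. In scaled fragments with the floor, 16 of the 17 deeper members with a measured host were lower than it in each genotype. The exceptions were Snora78 in WT and Snora28 in cKO. Of all 26 members, 21 were lower than their host in WT and 23 in cKO. The hosts were taken in FPKM without a floor. The host of Snora78 was listed at 0 in stimulated WT nTregs, so this exception cannot be read. Snord22 stood at -1.71 beside -0.02 for Snhg1, Snora64 at -4.04 beside 0.09 for Rps2, and Snora23 at -1.96 beside 0.48 for Ipo7. Snord22 and Snora64 overlap an exon of at least 1 transcript of their host, so fragments could be shared with it. Snora23 lies in an intron of every transcript of Ipo7. Snora78 stood at -3.76 beside -3.51 for Snhg9, whose own transcript is 183 nt long and was listed at 0 in both stimulated libraries. In fresh nTregs Snhg9 was at 25.8 (WT) and 3.83 FPKM (cKO), where 1 fragment at that length was worth 3.70 and 3.82 FPKM. The Snhg9 value thus rests on few fragments and is no measure of the fold. Among 15 measured noncoding host genes 4 rose and 8 fell, with Snhg8 at -1.81 and Gas5 at -0.66, and among 25 protein-coding hosts 9 rose and 4 fell. These counts moved with the setting. Of the 24 hosts of tested members, 16 rose and 2 fell with equal FPKM sums, 8 rose and 4 fell with equal sums over genes that are not short features, and 2 rose and 10 fell without the stimulated cKO library. With equal FPKM sums 7 noncoding hosts rose and 3 fell, and 21 protein-coding hosts rose and 0 fell. That scaling moved the median of all genes from -0.05 to 0.47. Without either fresh library 1 protein-coding host fell, and without the fresh cKO library 2 noncoding hosts rose.

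**Figure D4:**
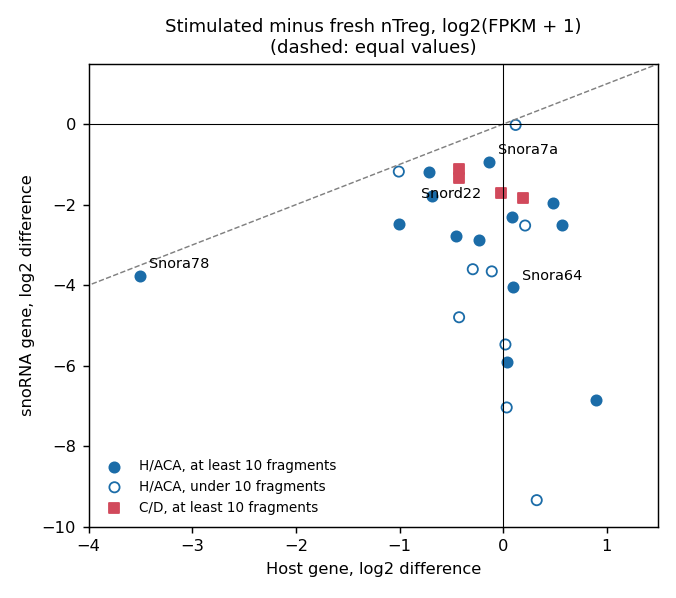
Stimulated minus fresh nTreg difference on the log2(FPKM + 1) scale for 26 snoRNA genes (y axis) against that of the host gene (x axis); filled blue circles are H/ACA and red squares C/D members with at least 10 fragments in each unstimulated library, and open circles have fewer. Every point lies below the dashed line of equal values, with Snora78, whose host was listed at 0 in both stimulated libraries, nearest to it among the members named.

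Other features of like length were also lower, and so were some longer small RNAs. In the class of 100 to 150 nt, 25 snoRNA genes had a median of -2.77. Another 18 features, mostly microRNA hairpins with few fragments, had one of -2.85, with 13 of 18 below 0. Among the 18, Gm12238 is a snoRNA by its RefSeq type, and Scarna3b and Scarna8 are guide RNAs. Mir20a and Mir1668 had identical values. With so few fragments the median of the 18 is no measure of the fold. In the class of 150 to 250 nt, 5 snoRNA genes had a median of -1.83 and 3 other features one of -2.10. In the class of 250 to 400 nt, 31 other features had a median of -0.07. Of 6 other small noncoding RNAs above 0 in all 6 libraries, 5 were lower after stimulation in WT and 6 in cKO, with medians of -1.65 and -1.56. The exception in WT was Rnu12, the U12 spliceosomal RNA, at 0.41. The 6 include Rmrp, the RNA of RNase MRP, at 66001 and 68229 FPKM in fresh and 10888 and 21449 FPKM in stimulated nTregs, and Rpph1, the RNA of RNase P, at 62731 and 75296 against 18899 and 27543. Rmrp (275 nt), Rpph1 (325 nt), Scarna13 (275 nt) and Terc (397 nt) among them are longer than any snoRNA member, of which the longest is 221 nt. The part that length plays in the snoRNA difference was not tested, nor was that of the marker sums that were lower in both stimulated nTreg libraries than in both fresh ones. Summed FPKM in fresh and then stimulated nTregs, WT first, were 5.50 and 5.69 against 3.59 and 4.03 for CD8 T cell markers, 4.69 and 1.97 against 0.591 and 1.41 for myeloid markers, 2.00 and 1.16 against 0.901 and 0.302 for NK cell markers, 820 and 832 against 407 and 410 for T cell markers, 652 and 613 against 445 and 342 for naive cell markers, and 969 and 913 against 760 and 753 for regulatory T cell markers. Members of the regulatory T cell list went both ways. Ctla4 went from 663 and 604 FPKM in fresh to 285 and 283 in stimulated nTregs, and Ikzf2 from 184 and 199 to 122 and 127. Il2ra was higher, from 75.3 and 63.7 to 295 and 285, as was Foxp3, from 46.6 and 45.9 to 56.9 and 57.8. In these bulk libraries fewer cells with a given RNA and less of it per cell cannot be told apart.

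The comparison of fresh nTregs with naive cells gave few calls among snoRNA genes. Of 30 tested, 1 rose and 1 fell, where 31.2% of all genes tested passed (16.5% higher and 14.7% lower). The median difference was 0.04 for H/ACA and -0.28 for C/D genes, beside -0.02 for all genes. Snord17 fell by 0.61 on the log2 scale (SE 0.17, limma adjusted p = 0.0389), from 6596 and 6274 FPKM in naive to 4331 and 4129 FPKM in fresh nTregs. Snora33 was the member that rose (0.42 ± 0.08, adjusted p = 0.0146), but it had 1 fragment in each of the 4 libraries. Its value is the worth of that fragment. Snord17 lost its call in each fit that left out a naive or fresh library and with libraries scaled on genes that are not short features. Without the naive cKO library 0 members were called, without either fresh library 1, and without either stimulated library 13, of which 4 rose and 9 fell. Among members above 0 in all 4 libraries compared and with the same sign in both genotypes, the largest other values were Snora28 (0.86), Snora43 (0.56) and Snora26 (0.44) on the higher side and Snora31 (-2.21, from at most 10 fragments), Snora78 (-0.53) and Snora81 (-0.47) on the lower side, none of which passed.

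The worth of a fragment itself differed between these populations. For a feature of 120 nt, equal fragment shares would appear as a difference in FPKM of 0.50 on the log2 scale in WT and 0.40 in cKO, and for one of 200 nt as 0.26 and 0.21. With 1 effective length for each gene in all libraries, an alternative added after the data were seen, 0 members rose and 5 fell: Snora7a, Snora17, Snord17, Snora81 and Snora52. Snora33 then had -0.09. In fragments scaled by depth, 17 of the 19 deeper members were lower in fresh nTregs in each genotype, with medians of -0.53 (WT) and -0.45 (cKO), whereas in FPKM 12 (WT) and 14 (cKO) were lower, with medians of -0.11 in both.

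Snord22 illustrates the gap between the scales. It differed between fresh nTreg and naive cells by -0.40 (WT) and -0.35 (cKO) in FPKM, and by -0.87 and -0.73 in scaled fragments, with 95% counting intervals of -0.96 to -0.79 and -0.82 to -0.64. Snora74a, at 198 nt, differed by -0.02 and 0.06 in FPKM and by -0.29 and -0.16 in scaled fragments. Snora26 differed by 0.46 and 0.41 in FPKM but by -0.03 and 0.01 in fragments, with intervals that span 0 (-0.37 to 0.31 and -0.32 to 0.35). Its higher FPKM in fresh nTregs thus did not appear in fragments. These exact Poisson intervals cover counting error only, since fragments without molecular identifiers are not independent molecules.

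Of the 24 hosts, 16 fell in this comparison, where 14.7% of all genes tested fell. The median of the hosts was -0.50 beside -0.07 for the 26 snoRNAs in FPKM. In scaled fragments the 19 deeper members, 17 of which had a measured host, had medians of -0.53 (WT) and -0.45 (cKO). The host median is in FPKM and over a different set, so these values are not a like comparison of snoRNAs with hosts. Rps3 was at -0.55, where Snord15b was at -0.18 in FPKM and at -0.55 with 1 effective length, and Snord15a at -0.01 and -0.36. The host calls were lost in part under other settings, with 8 and 7 hosts that fell under the rescalings, 1 to 4 without a naive or fresh library and 21 without either stimulated library. Of the 33 particle protein genes, 2 rose and 10 fell, where 16.5% of all genes tested rose and 14.7% fell. Fbl was at -0.32 and Nop56 at -0.36, and both values passed, but no C/D core gene passed under either rescaling or in any fit without a naive or fresh library. The 10 that fell became 3 under each rescaling, 1 to 4 without a naive or fresh library and 17 without either stimulated one. The order of hosts and particle proteins against naive cells depends on scaling: with equal FPKM sums per library, 3 protein genes rose and 3 fell, and 2 of the 4 C/D core values and 1 of the 4 H/ACA core values were positive.

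**Figure D5:**
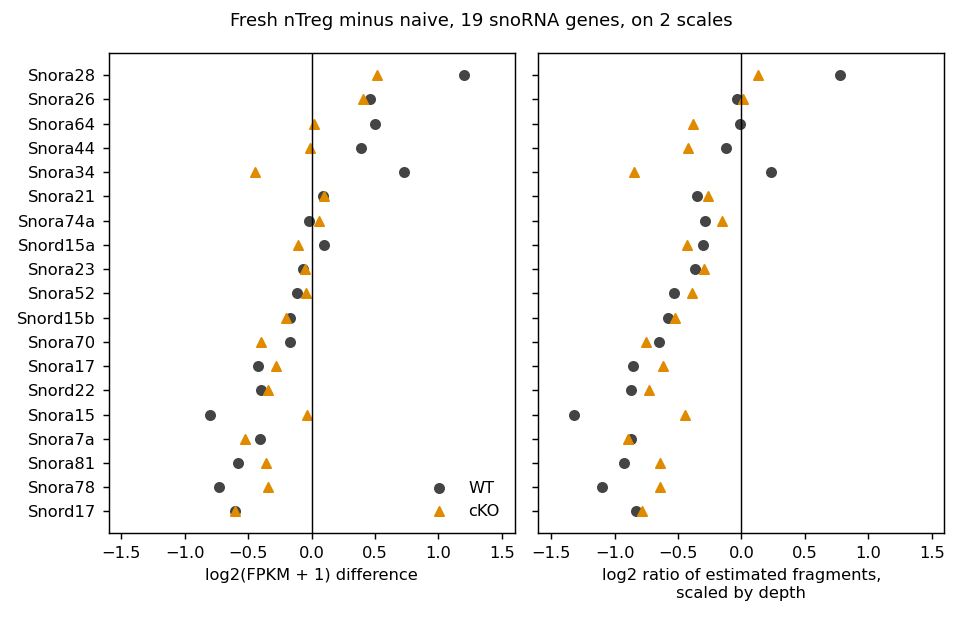
Fresh nTreg minus naive difference of the 19 deeper members on the log2(FPKM + 1) scale (left) and as the log2 ratio of estimated fragments scaled by library depth (right), with grey circles for WT and orange triangles for cKO. In fragments 17 of 19 members lie below 0 in each genotype, against 12 and 14 in FPKM.

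Between genotypes 1 of 30 members was called. Snora41 rose in cKO across the 3 populations (limma adjusted p = 1.42e-05), where 0.374% of all genes tested passed, 0.258% of them higher and 0.116% lower as shares of all. It was listed at 0 in all 3 WT libraries and at 99.2, 135 and 132 FPKM in the cKO libraries, which is 1 fragment in each. Snora41 has a near copy, and both groups are at or under a floor of 3 fragments, so no fold is given. Without the stimulated WT library 4 members were called and without the stimulated cKO library 5, of which 3 and 4 fell. None of the 19 deeper members passed, and 1 of them, Snora52, had an unadjusted p under 0.05 (difference -0.35 ± 0.07, adjusted p = 0.15). Snora52, in Rplp2, was lower in cKO in each population, by 0.43, 0.36 and 0.25 on the log2 scale for naive, fresh and stimulated cells. Snord15b (-0.29) and Snora7a (-0.28) were also lower in cKO in each population without passing.

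Within single populations, with 1 library per genotype and so no test, 7 of 32 members were at least 2-fold apart in naive cells, where 1.21% of all genes were. There 2 were higher in cKO (background 0.699%) and 5 lower (0.507%). In fresh nTregs the count was 7 of 30 (background 1.03%), with 5 higher in cKO (0.633%) and 2 lower (0.395%), and in stimulated nTregs 13 of 26 (background 1.93%). Few fragments stood behind most of them: of the 19 deeper members, 0 were 2-fold apart in naive cells, 1 in fresh and 6 in stimulated nTregs. The deeper set has a minimum of fragments in naive and fresh libraries only. These counts therefore cannot be compared between stimulated nTregs and the other populations. The deeper member in fresh nTregs was Snora28, in Eif5, with 1585 FPKM in WT and 612 in cKO from 32 and 12 fragments. Among members above 0 in both libraries of a population, the largest differences in naive cells were 0.31 for Snora64, 0.27 for Snora34 and 0.17 for Snora70 on the side of cKO, and -1.51 for Snora65, -0.78 for Snora69 and -0.71 for Snora31 on the side of WT. In fresh nTregs they were 1.01 for Snora75, 0.76 for Snora69 and 0.62 for Snora43, and -1.37 for Snora28, -0.98 for Snora31 and -0.97 for Snora3. Apart from Snora64, Snora34, Snora70 and Snora28, these members had at most 10 fragments in any library. No C/D member reached 2-fold in any population.

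In stimulated nTregs 11 of these 13 members were higher in cKO (background 1.21% of all genes) and 2 were lower (0.72%). The 6 deeper members among them were all higher in cKO: Snora15, Snora28, Snora34, Snora64, Snora70 and Snora78. Their depth holds for unstimulated libraries only. After stimulation Snora15 had 0 fragments in WT and 2 in cKO, Snora28 had 3 and 9, Snora34 had 0 and 4, and Snora70 had 4 and 10. Snora78 had 10 fragments in WT and 32 in cKO, a scaled ratio of 1.31 on the log2 scale with a 95% counting interval of 0.25 to 2.49. Snora64 had 2 and 14 fragments, a ratio of 2.43 with an interval of 0.31 to 5.61. Snord15b went the other way, with a ratio of -0.77 and an interval of -0.91 to -0.63. Over the 26 members with fragments in either library, 4 intervals lay above 0, 5 lay below and 17 spanned it. The members with more fragments differed less and in both directions, as Snord22 was higher in cKO by 0.44 in FPKM and Snord17 by 0.40, while Snord15b and Snora7a were lower by 0.66 and Snora81 by 0.55. All of these differences compare 2 libraries, not 2 genotypes.

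Across the 6 libraries the members whose pattern was most like that of Snord22 on the log2(FPKM + 1) scale were Snord17 (Pearson r = 0.99), Snora78 (0.99) and Snora23 (0.99). For Snora74a they were Snora33 (1.00), Snora52 (0.99) and Snora23 (0.99). Snora33 had 1 fragment in each unstimulated library and 0 in both stimulated ones, so its coefficient reflects a step between a value and 0. These coefficients are descriptions over 6 shared libraries of 3 populations, all of which separate stimulated from unstimulated cells, and no p is given.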

How the data were processed

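Per the labels' protocols, 322 ng of RNA per sample was depleted of ribosomal RNA (Ribo-Zero Gold) and made into stranded libraries, amplified over 12 cycles. The submitters' processing notes name FastQC, TopHat, Cuffdiff, Cuffnorm and build mm10, without versions. The authors deposited FPKM, scaled across the 6 libraries by Cuffnorm. The value columns named YKP were read as cKO by elimination. Identical repeats of a transcript were counted once, transcripts of a symbol were summed, and the 11234 genes with at least 1 FPKM in at least 2 libraries were tested with limma 3.58.1 (R 4.3.3) on log2(FPKM + 1), with population and genotype as additive terms and Benjamini-Hochberg adjustment at 0.05. Each group has 1 library, so the spread is that of the genotype difference over populations, with 2 residual degrees of freedom. The fit was tested on simulated data. FPKM carry no counts: fragments were estimated from the steps between low values for features of 105 to 250 nt, and Snora5c, outside that range, has none. Library depth was read from low values of longer transcripts and carries the Cuffnorm scaling. Exact Poisson intervals are at 95%. Lengths are from RefSeq (GRCm38.p6), and hosts and sequences from GENCODE M21. Near copies were found with BLAST 2.17.0.

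Members named are the 5 per class with the highest mean FPKM, the 5 largest changes per class and direction that passed in each limma contrast (or the 3 largest values where fewer than 3 passed), the 3 largest differences per direction between genotypes in each population, and fixed families. The members and lists were chosen with earlier results of these data known. Other genes of a list are named as examples, and Snora15, Snora34, Snora17, Snora70 and Snora52 were also named after their values were seen. Alternatives were the pseudocount, the filter, 2 rescalings, transcripts left unsummed, no intensity trend, population alone, leaving out each library, and, added after the data were seen, 1 effective length per gene and members with at least 10 fragments.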

Additional observations from a re-analysis of the deposited data

Results flagged for a closer look

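Among the members with the highest mean FPKM in each class, 6 had a cKO minus WT difference of opposite sign in stimulated and fresh nTregs. There was 1 library per group on each side, so the difference between the populations was not tested. In stimulated nTregs the values on the log2(FPKM + 1) scale were 2.56 for Snora64, 0.46 for Snora44, 0.44 for Snord22, 0.40 for Snord17, 0.32 for Snora26 and -0.06 for Snora74a. In fresh nTregs they were -0.16 for Snora64, -0.71 for Snora44, -0.18 for Snord22, -0.07 for Snord17, -0.05 for Snora26 and 0.02 for Snora74a. The Snora64 value in stimulated nTregs rests on 2 fragments in WT and 14 in cKO. Less abundant members changed sign as well. Examples are Snora28, at -1.37 in fresh and 1.17 in stimulated nTregs, and Snora17, at 0.30 and -0.39.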

How the results depend on the processing

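Between stimulated and fresh nTregs, where 23 of 30 members were called, the count was 15 with no filter on low values and 17 to 26 when 1 library was left out, with 1 member rising without the fresh cKO or the stimulated WT library; every other alternative stayed within 1.5 times of 23. Between fresh nTreg and naive cells, where 2 were called, it was 1 with no filter, 1 with transcripts not summed, 5 with 1 effective length, 1 among members with at least 10 fragments, and 0 to 13 when 1 library was left out. Between genotypes, where 1 was called, it was 0 among members with at least 10 fragments and 1 to 5 when 1 library was left out.

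The median fresh nTreg minus naive difference of H/ACA genes was 0.19 with equal FPKM sums, 0.19 with equal sums over genes that are not short features, -0.32 with 1 effective length and -0.36 to 0.27 without 1 library; that of C/D genes was -0.077, -0.074, -0.68 and -0.29 to -0.26. The C/D median after stimulation was -0.94 with equal FPKM sums and -1.33 with equal sums over genes that are not short features. Without 1 library the medians after stimulation were -3.18 to -2.04 (H/ACA) and -1.57 to -1.47 (C/D), and between genotypes -0.056 to 0.51 and -0.088 to -0.0036. Equal FPKM sums moved the median of all genes to 0.47 after stimulation and 0.15 between fresh nTreg and naive cells.

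As means of both genotypes for naive, fresh and stimulated cells, the share of all snoRNA genes was 9.84%, 10.4% and 5.18% without Snord22, and 23.0%, 22.4% and 9.61% of the FPKM outside snoRNA genes. The C/D share was 3.87%, 3.79% and 2.54% without Snord22, and 15.7%, 14.3% and 6.72% of the outside sum, and the H/ACA share of the outside sum was 7.33%, 8.12% and 2.89%. Snora33 turned to -0.089 between fresh nTreg and naive cells with 1 effective length. Snora31, with at most 10 fragments, ranged from -8.21 to 0.89 after stimulation and from -0.85 to 3.77 between genotypes when 1 library was left out; it was at 0.89 without the stimulated WT library and at -0.85 without either stimulated library. The cause of these changes was not tested. No paired analysis was possible because the labels give no replicate numbers and each group has 1 library. Depth limits the 13 members with at most 10 fragments in any library.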
